A study of Oryza sativa with 9 samples.

Results

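UDP-glycosyltransferases (UGTs) move a sugar, in plants usually glucose, from a UDP-sugar to a small molecule such as a hormone, a flavonoid, a phenolic acid or a foreign compound. The glucoside is more soluble in water, is often stored in the vacuole and, when the acceptor is a hormone, is usually inactive until a beta-glucosidase removes the sugar. Plant genomes hold large UGT families, often with neighbouring copies, and the acceptor of most rice members is known only by similarity to an enzyme of another plant. The UGT genes described here were the entries of the deposited expression table whose description contains "UDP-gluco", whose KEGG annotation names neither phenylpropanoid biosynthesis nor starch and sucrose metabolism, and whose FPKM (the fragments of an entry, scaled to its exon length and to the mapped fragments of the library) averaged at least 0.5 over the 9 libraries. Of 38652 entries, 56 had such a description, 48 were kept by the KEGG condition and 26 of these reached the limit, out of 22946 entries of the whole table that did. The other 22 averaged less than 0.5 FPKM, and 5 of them were listed at 0 in every library. Just inside the limit stood LOC_Os09g34250 with a mean of 0.530 FPKM and LOC_Os05g42070 with 0.535 FPKM, and just outside it LOC_Os02g14680 with 0.420 FPKM and LOC_Os07g30760 with 0.405 FPKM.

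The libraries came from leaves of IR64, an *indica* variety that lacks *Sub1A* and does not tolerate submergence, after 4 days under 100 cm of water. At 20 days of age and 2 days before submergence, the seedlings had been sprayed with 25 mL of solution. It held paclobutrazol (PB), an inhibitor of gibberellin synthesis, at 200 mg/L (PBT), gibberellin (GA) at 100 mg/L (GAT), or the solvent alone (Control). The labels give this solvent as 0.1% ethanol and the methods of the study as methanol. By the methods, PB and GA were first dissolved in ethanol. If Control received methanol, a difference in solvent cannot be told apart from the effect of either compound. Each group has 3 libraries, which the study calls biological triplicates without saying whether they came from separate pots, so the p values measure the spread between these libraries. The group of each library follows the header of the deposited table. Of the files deposited for single libraries, that of GAT replicate 1 holds the values headed PBT replicate 3 in the table, those of GAT replicates 2 and 3 hold GAT replicates 1 and 2, and that of PBT replicate 3 holds PBT replicate 2. Which of the 2 is right was not settled here. The values headed GAT replicate 3 are in none of the single-library files, and those headed PBT replicate 3 are only in that of a GAT library. Of the deposited names, only the table's header therefore gives the groups of GAT replicate 3 and PBT replicate 3. In the RuBisCO small chain sum described below, GAT replicate 3 (6392 FPKM) lay between the other GAT libraries. PBT replicate 3 (8887 FPKM) lay between the other PBT libraries. All 3 groups were submerged, so no value here compares submerged with unsubmerged plants.

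The labelled tissue was checked against leaf and seed marker genes. The root marker chosen, RCc3, had no entry under its locus name, so root RNA was not checked. The 3 RuBisCO small chain entries summed to 8655 to 9091 FPKM in PBT, 6183 to 6428 FPKM in GAT and 13141 to 13842 FPKM in Control, and the 12 chlorophyll A-B binding protein entries to 5884 to 8602, 4750 to 5741 and 12373 to 13317 FPKM in the same order of groups, while the 5 seed storage entries summed to at most 1.1 FPKM in any library. The leaf markers thus differed between the groups, and their part in the results on the UGT genes was not tested. In bulk RNA, fewer cells of a type and less RNA per cell cannot be told apart. The 26 UGT entries together gave 108 to 148 FPKM in PBT, 106 to 157 FPKM in GAT and 125 to 130 FPKM in Control, ranges that overlapped.

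The 26 entries lie on 10 chromosomes by their locus names. A total of 22 are described as proteins with a UDP-glucuronosyl and UDP-glucosyl transferase domain, LOC_Os01g49230 and LOC_Os02g09510 as limonoid UDP-glucosyltransferases and LOC_Os05g42070 as a flavonoid O-glucosyltransferase. The remaining one, LOC_Os02g44510, is a UDP-glucose:glycoprotein glucosyltransferase, an enzyme of the endoplasmic reticulum that puts glucose back on misfolded glycoproteins, and it was taken in by the words of its description. The enzyme class that the authors assigned by similarity divides the 26 entries. A thiohydroximate glucosyltransferase, which in *Arabidopsis* takes part in glucosinolate synthesis, was assigned to 4 entries. A limonoid glucosyltransferase, which in citrus fruit removes bitter limonoids, was assigned to 8, and a hydroquinone glucosyltransferase, which makes arbutin in other plants, to 9. The remaining 5, LOC_Os02g44510 among them, had another class or none. These names are used below only as labels of sequence classes.

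Most of the family was weakly expressed. Only 4 entries averaged 10 FPKM or more and 10 averaged at least 5 FPKM, while 7 averaged less than 1 FPKM, and the median entry had 2.99 FPKM against 4.74 FPKM over all genes tested. In 12 entries every library was above 0, and 14 were listed at 0 in at least 1 library. In 10 of the 26, a single library was listed at 0 while both other libraries of its group exceeded 1 FPKM, which held for 11.3% of all genes tested. The median pooled SD within groups was 0.53 on the log2(FPKM + 1) scale in the UGT entries and 0.42 over all genes tested. The most abundant entries were LOC_Os06g39330 with a mean of 18.6 FPKM, the glycoprotein enzyme LOC_Os02g44510 with 18.4 FPKM, LOC_Os06g39270 with 13.4 FPKM and LOC_Os09g34230 with 13.1 FPKM.

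**Figure D1:**
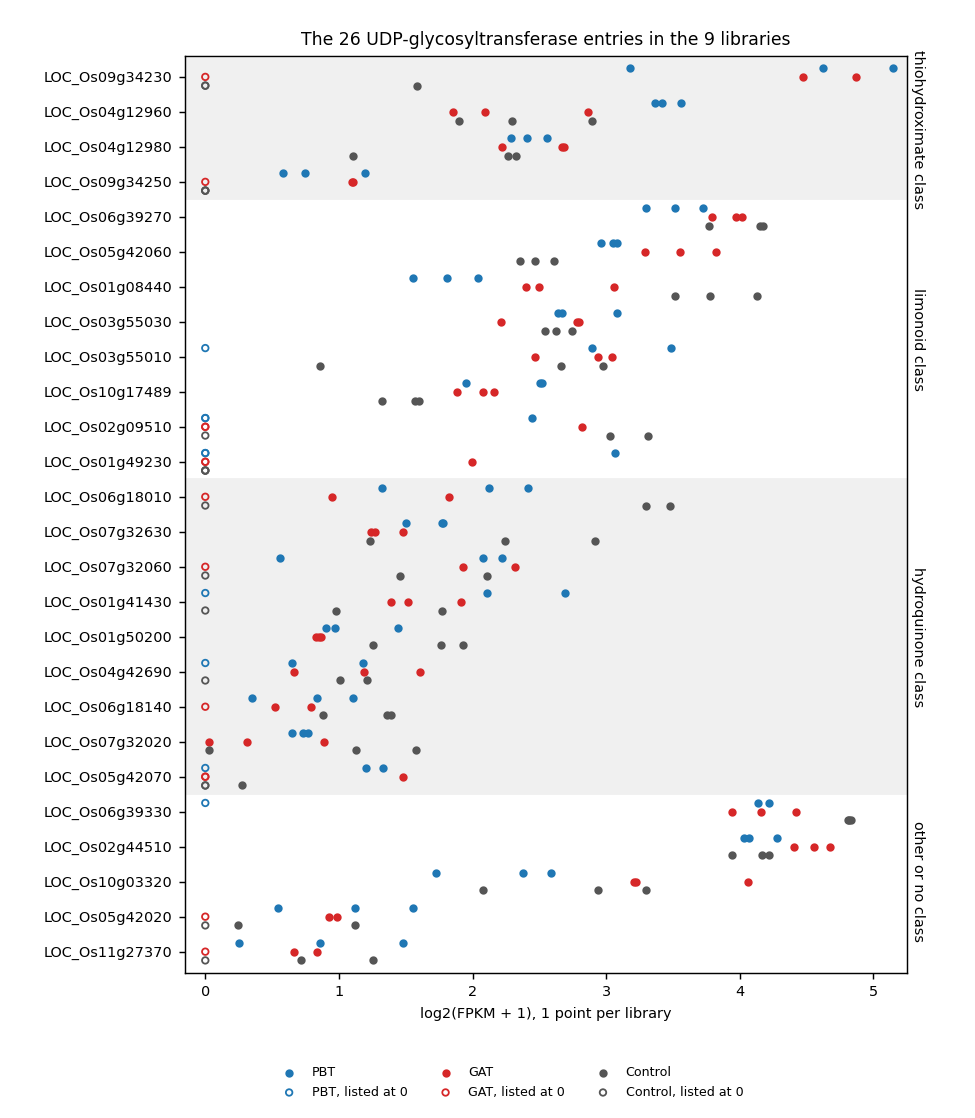
Level of each of the 26 UGT entries as log2(FPKM + 1) on the horizontal axis, with 1 point per library (PBT blue, GAT red, Control grey) and open points for libraries listed at 0. Entries are grouped by assigned enzyme class and ordered by mean within it; 4 entries average 10 FPKM or more, and in 13 entries the groups overlap in every comparison.

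The comparisons PBT/Control, GAT/Control and PBT/GAT set the PB spray, the GA spray and the solvent against each other under water. The study reports no GA content of these plants. A gene was called a differentially expressed gene (DEG) when the log2 fold change of FPKM + 1 was at least 1 in size and the Benjamini-Hochberg adjusted p of limma, over all genes tested in that comparison, was under 0.05. Because 1 is added, the fold changes of weakly expressed entries are understated. In PBT/Control, 1 of the 26 UGT entries was a DEG, LOC_Os01g08440, which was lower, against 4.34% of all genes tested (2.87% higher and 1.47% lower). In GAT/Control, 2 of 26 were DEGs, LOC_Os05g42060 higher and LOC_Os01g08440 lower, against 8.42% of all genes tested (4.71% higher and 3.72% lower; with the libraries scaled to a common median, 907 of 1858 DEGs were higher, in place of 1080 of 1933). In PBT/GAT, 0 of 26 were DEGs by limma, against 6.30% of all genes tested (3.48% higher and 2.82% lower). At an unadjusted p under 0.05 stood 6 of the 26 in PBT/Control (19.8% of all genes tested), 6 in GAT/Control (25.1%) and 5 in PBT/GAT (23.3%). These shares are near those of all genes. The median log2 fold change of the 26 entries was 0.09 in PBT/Control, 0.20 in GAT/Control and 0.20 in PBT/GAT, beside -0.04, 0.03 and -0.07 over all genes tested, with 14, 14 and 15 of the 26 above 0. PBT/Control and GAT/Control share the Control libraries, and each comparison shares its libraries with the other comparisons.

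**Figure D2:**
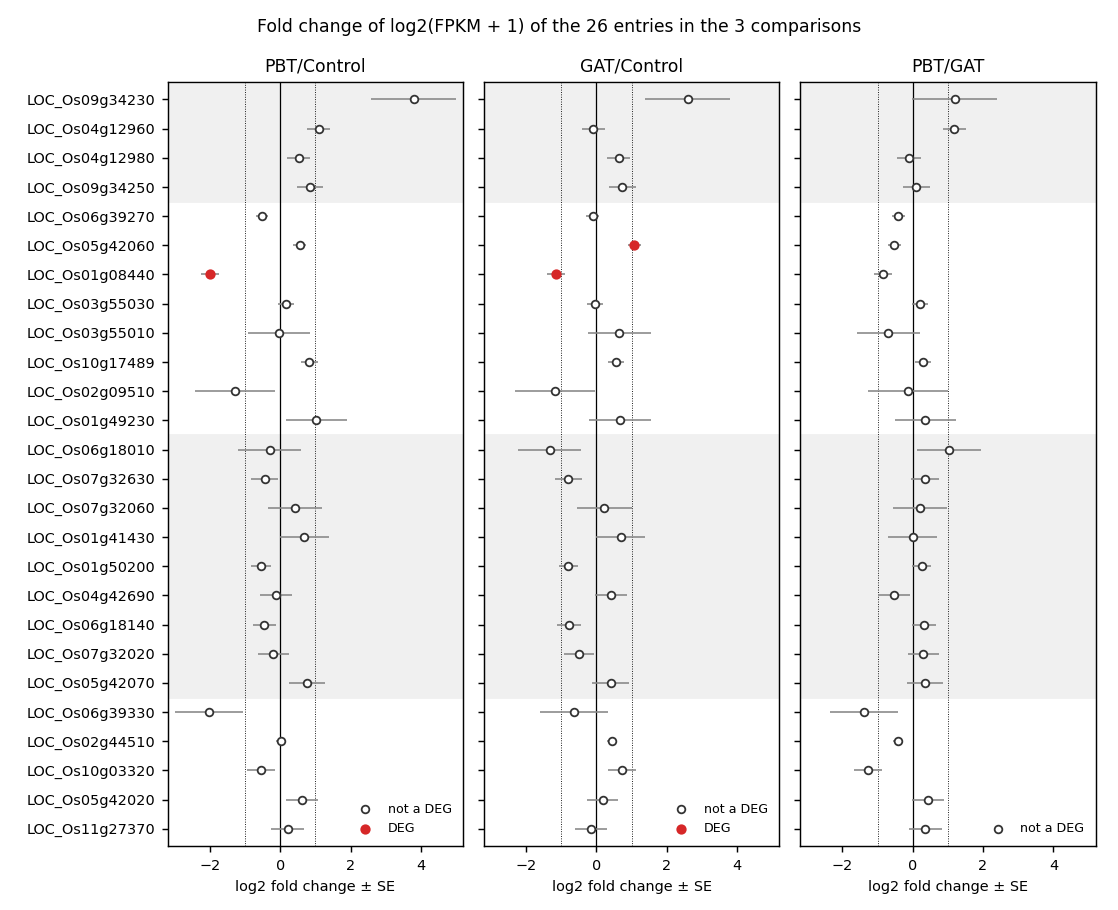
Log2 fold change of FPKM + 1 with its standard error for each of the 26 UGT entries in PBT/Control, GAT/Control and PBT/GAT. Dotted lines mark the fold limit of 1 in either direction and filled points mark DEGs, which are 1, 2 and 0 entries in the 3 panels.

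Among the 8 entries of the limonoid glucosyltransferase class were both DEGs. LOC_Os01g08440, annotated with a response to toxin, had 2.50, 1.94 and 3.12 FPKM in the PBT libraries, 4.28, 4.66 and 7.32 FPKM in the GAT libraries and 16.5, 10.5 and 12.7 FPKM in the Control libraries. The 3 groups did not overlap, with PBT lowest and Control highest. The log2 fold change was -2.00 in PBT/Control (SE 0.257, limma adjusted p 0.0027) and -1.16 in GAT/Control (adjusted p 0.0214), so the entry was lower after either compound. The difference between the compounds, -0.85 in PBT/GAT, was not called (adjusted p 0.0792). The call in PBT/Control held in all 23 alternative analyses, with log2 fold changes of -2.34 to -1.84. The fold change in GAT/Control was -1.36 to -0.99 over the 23, with an adjusted p of 0.0157 to 0.0730, and the call was lost in 6, among them the fits without GAT replicate 1 (0.0705), GAT replicate 2 (0.0703), Control replicate 1 (0.0730) and Control replicate 3 (0.0616).

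LOC_Os05g42060, of the same class, had 7.46, 6.78 and 7.28 FPKM in PBT, 10.7, 13.1 and 8.81 FPKM in GAT and 4.54, 5.10 and 4.11 FPKM in Control. Here too the groups did not overlap, but the order was GAT, PBT, Control from high to low. It rose in GAT/Control with a log2 fold change of 1.08 (SE 0.186, adjusted p 0.00657), whereas 0.55 in PBT/Control (adjusted p 0.140) and -0.52 in PBT/GAT (adjusted p 0.127) were not called. The fold change in GAT/Control lay near the limit and fell short of it without GAT replicate 2 (0.94) and with the libraries scaled to a common median (0.99), at an adjusted p of 0.00347 to 0.0284 over the 23 alternatives. The transcripts of this entry carry a second locus name, LOC_Os05g42040, and a separate assembled entry with that name, chosen after its values were seen, also was higher in GAT. It had 2.21, 4.00 and 0.520 FPKM in PBT, 6.73, 4.42 and 2.93 FPKM in GAT and 0.920, 0 and 0.527 FPKM in Control, and was a DEG in GAT/Control (1.94, adjusted p 0.0326). That call was lost in 9 of 21 alternatives (adjusted p 0.0189 to 0.110), among them the fits without GAT replicate 1 or 2, PBT replicate 1 or any Control replicate. How reads were divided between the entries is not stated.

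LOC_Os05g42060 stands between 2 further UGT entries, LOC_Os05g42020 and LOC_Os05g42070, in the only run of at least 3 UGT entries whose locus numbers differ by at most 100. The neighbours were much weaker. LOC_Os05g42020, annotated as a zeatin O-glucosyltransferase, which stores the cytokinin zeatin as its glucoside, had 0.457, 1.18 and 1.94 FPKM in PBT, 0, 0.899 and 0.979 FPKM in GAT and 0, 1.18 and 0.187 FPKM in Control. LOC_Os05g42070, the flavonoid O-glucosyltransferase, had 1.51, 1.31 and 0 FPKM in PBT, 1.79, 0 and 0 FPKM in GAT and 0, 0.210 and 0 FPKM in Control. Neither was called, and in both the groups overlapped. Among all 48 entries, weak ones included, 22 stand in 8 runs of at least 2 entries by the same limit on locus numbers, and 6 of the runs hold an entry below 0.5 FPKM.

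The other 6 entries of the class did not pass the test. The most abundant, LOC_Os06g39270, had 10.4, 12.2 and 8.84 FPKM in PBT, 14.7, 12.9 and 15.2 FPKM in GAT and 17.0, 12.7 and 16.8 FPKM in Control. Its PBT libraries lay below all libraries of the other groups, with log2 fold changes of -0.52 in PBT/Control (adjusted p 0.159) and -0.41 in PBT/GAT (adjusted p 0.220). LOC_Os10g17489 had 4.68, 2.86 and 4.75 FPKM in PBT, 2.70, 3.23 and 3.47 FPKM in GAT and 2.03, 1.50 and 1.97 FPKM in Control. The PBT and GAT libraries thus all lay above the Control libraries (0.83 in PBT/Control, adjusted p 0.0774, and 0.55 in GAT/Control, adjusted p 0.182). A second entry of this locus name had 2.78, 1.80 and 0.81 FPKM in GAT and 0 in every PBT library. With both entries summed, the larger change was in GAT/Control (0.86, limma adjusted p 0.0456, short of the fold limit). In PBT/Control the sum gave 0.63 (adjusted p 0.176). LOC_Os03g55030 had 5.24, 7.47 and 5.36 FPKM in PBT, 5.95, 5.89 and 3.63 FPKM in GAT and 5.17, 4.83 and 5.70 FPKM in Control, and its groups overlapped. Its neighbour LOC_Os03g55010 had 0, 10.2 and 6.43 FPKM in PBT, 6.66, 7.26 and 4.54 FPKM in GAT and 6.86, 0.813 and 5.32 FPKM in Control, again with overlap. The 2 entries described as limonoid UDP-glucosyltransferases were listed at 0 in 5 and 7 of the 9 libraries. LOC_Os02g09510 was above 0 in PBT replicate 3 (4.45 FPKM), GAT replicate 1 (6.06 FPKM) and Control replicates 2 and 3 (7.17 and 8.93 FPKM), and LOC_Os01g49230 in PBT replicate 3 (7.38 FPKM) and GAT replicate 1 (2.98 FPKM).

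The 4 entries of the thiohydroximate glucosyltransferase class form 2 pairs of near neighbours, and none was a DEG, although LOC_Os09g34230 had the largest positive fold changes of the 26. It had 8.05, 34.4 and 23.6 FPKM in PBT, 28.3, 21.2 and 0 FPKM in GAT and 1.99, 0 and 0 FPKM in Control. All PBT libraries lay above all Control libraries, while GAT replicate 3 was listed at 0. The log2 fold change was 3.79 in PBT/Control (SE 1.21, adjusted p 0.1202) and 2.59 in GAT/Control (adjusted p 0.228). Over the 23 alternatives the adjusted p was 0.00186 to 0.290 in PBT/Control, where 5 of them called it, among them the one with an unadjusted p. In GAT/Control it was 0.000422 to 0.507, and 3 of them called the entry. Without GAT replicate 3 both were called (3.79 in PBT/Control, adjusted p 0.0135; 4.15 in GAT/Control, adjusted p 0.00992), and without GAT replicate 1 or 2 the fold change in GAT/Control was 1.71 or 1.91 (adjusted p 0.507 and 0.455).

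Besides the 26, the table holds 9 assembled entries that carry a locus name of a UGT entry. Of these, 6 could be tested and 2 were DEGs in at least 1 comparison, the entry LOC_Os05g42040 above and a second entry named LOC_Os09g34230, which has no description and was examined after its values were seen. When the entries of 1 locus name were summed, 1 of the 7 loci concerned, LOC_Os09g34230, was a DEG. The second entry of LOC_Os09g34230 had 5.99, 8.82 and 9.10 FPKM in PBT, 11.6, 25.1 and 29.7 FPKM in GAT and 0.330, 2.23 and 1.27 FPKM in Control, and its groups did not overlap. GAT replicate 3, listed at 0 in the first entry, was the highest library of the second. It was a DEG in PBT/Control (2.05, adjusted p 0.0227) and in GAT/Control (3.34, adjusted p 0.00117). The call in GAT/Control held in all 22 alternatives, and the call in PBT/Control was lost in 6 (adjusted p 0.00986 to 0.0888), namely with an adjusted p under 0.01 required and without PBT replicate 1 (0.0506), 2 (0.0853) or 3 (0.0888) or Control replicate 1 (0.0706) or 3 (0.0737). The sum of both entries was 14.0, 43.2 and 32.7 FPKM in PBT, 39.9, 46.3 and 29.7 FPKM in GAT and 2.32, 2.23 and 1.27 FPKM in Control. Summed, the locus rose in PBT/Control by 3.28 (adjusted p 0.00186) and in GAT/Control by 3.75 (adjusted p 0.000422) on the log2 scale.

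**Figure D3:**
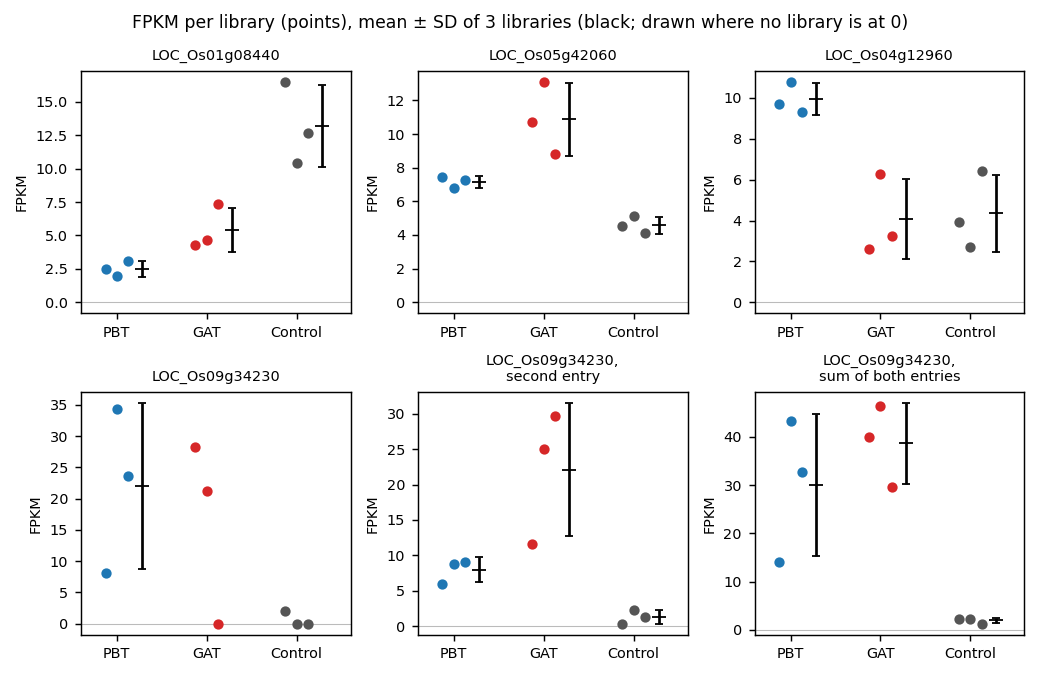
FPKM of LOC_Os01g08440, LOC_Os05g42060, LOC_Os04g12960 and LOC_Os09g34230, of the second entry named LOC_Os09g34230 and of the sum of both entries, with 1 point per library and the mean ± SD of 3 libraries in black where no library is at 0. LOC_Os01g08440 was lowest in PBT (1.94 to 3.12 FPKM) and highest in Control (10.5 to 16.5 FPKM), and the sum for LOC_Os09g34230 was 1.27 to 2.32 FPKM in Control and at least 14.0 FPKM in every PBT and GAT library.

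The neighbour LOC_Os09g34250 was weak, with 0.494, 1.29 and 0.681 FPKM in PBT, 0, 1.14 and 1.16 FPKM in GAT and 0 in all 3 Control libraries. No fold can be read against a group listed at 0, so its value in the plot of fold changes depends on the 1 added to FPKM. It was not called in any comparison, and in 2 of 22 alternatives it was called in GAT/Control (adjusted p 0.0294 to 0.485), 1 of them the fit without GAT replicate 1 (0.0294). The pair on chromosome 4 showed another order. LOC_Os04g12960 had 9.71, 10.8 and 9.32 FPKM in PBT, 2.62, 6.29 and 3.26 FPKM in GAT and 3.92, 2.73 and 6.43 FPKM in Control, so the PBT libraries stood above all others while GAT and Control overlapped. The log2 fold change was 1.09 in PBT/Control (adjusted p 0.101, 0.0688 to 0.252 over the alternatives) and 1.18 in PBT/GAT (adjusted p 0.0601, 0.0329 to 0.165 over the alternatives), with no call in either. It was called in PBT/GAT in 5 of the 23 alternatives, among them the one with an unadjusted p and the fit without GAT replicate 2 (adjusted p 0.0329). LOC_Os04g12980, which also carries an annotation as a salicylic and benzoic acid glucosyltransferase, had 4.88, 4.31 and 3.88 FPKM in PBT, 5.43, 5.36 and 3.67 FPKM in GAT and 1.15, 4.02 and 3.80 FPKM in Control, and its groups overlapped.

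None of the 9 entries of the hydroquinone glucosyltransferase class was a DEG, and none averaged over 3.51 FPKM. In GAT/Control their median log2 fold change was -0.50, with 5 of 9 below 0, and in PBT/Control it was -0.19, with 6 of 9 below 0. LOC_Os01g50200 had 0.870, 1.71 and 0.957 FPKM in PBT, 0.804, 0.775 and 0.826 FPKM in GAT and 2.39, 2.81 and 1.38 FPKM in Control, with the GAT libraries below all others (-0.80 in GAT/Control, adjusted p 0.106). LOC_Os06g18140 had 0.788, 1.15 and 0.273 FPKM in PBT, 0, 0.732 and 0.438 FPKM in GAT and 1.57, 0.844 and 1.62 FPKM in Control, again with GAT below Control (-0.77, adjusted p 0.198). This did not hold when the further weak entries of the same locus name were added. The sum was 0, 2.66 and 1.04 FPKM in GAT, which overlapped Control (-0.25 in GAT/Control, limma adjusted p 0.816). In PBT/Control the sum gave 0.39 (adjusted p 0.741), against -0.45 for the entry alone. In LOC_Os07g32630 the GAT libraries (1.78, 1.37 and 1.41 FPKM) lay below the PBT libraries (2.41, 1.84 and 2.43 FPKM), while the Control libraries (1.35, 6.55 and 3.73 FPKM) spanned both.

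LOC_Os06g18010, the most abundant of the hydroquinone class, changed its call with a single value of 0. It had 1.50, 3.36 and 4.33 FPKM in PBT, 0, 0.927 and 2.53 FPKM in GAT and 8.84, 10.1 and 0 FPKM in Control. With the values as deposited the log2 fold change was -1.34 in GAT/Control (adjusted p 0.419). With the 0 of Control replicate 3 treated as missing it was -2.46 and passed the test (adjusted p 0.0189), and over its 22 alternatives the adjusted p was 0.0189 to 0.719. The other 5 entries of the class (LOC_Os01g41430, LOC_Os04g42690, LOC_Os05g42070, LOC_Os07g32020 and LOC_Os07g32060) overlapped between the groups in every comparison, with means of 0.535 to 2.13 FPKM.

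Of the entries outside these classes, LOC_Os06g39330 is assigned to anthocyanin biosynthesis, the pathway of red and purple flavonoid pigments. It had 16.6, 17.6 and 0 FPKM in PBT, 14.4, 20.5 and 16.9 FPKM in GAT and 27.5, 27.1 and 27.3 FPKM in Control, and every PBT and GAT library lay below every Control library. It was not called (-2.04 in PBT/Control, adjusted p 0.293; -0.65 in GAT/Control, adjusted p 0.731). With the 0 of PBT replicate 3 treated as missing, the log2 fold change was -0.64 in PBT/Control (limma adjusted p 0.0697) and -0.65 in GAT/Control (0.0315). Both values fell short of the fold limit. The glycoprotein enzyme LOC_Os02g44510 had 15.4, 18.4 and 15.8 FPKM in PBT, 24.5, 22.6 and 20.2 FPKM in GAT and 16.9, 17.6 and 14.4 FPKM in Control. Its GAT libraries stood above all others, by 0.44 on the log2 scale against Control (adjusted p 0.111). LOC_Os10g03320, which has no assigned class, had 5.01, 2.31 and 4.19 FPKM in PBT, 15.7, 8.36 and 8.24 FPKM in GAT and 6.65, 8.85 and 3.22 FPKM in Control. Its PBT libraries lay below the GAT libraries (-1.27 in PBT/GAT, adjusted p 0.0826). It was called there in 1 of the 23 alternatives, the one with an unadjusted p, and its adjusted p was 0.0629 to 0.232 over them. LOC_Os11g27370, annotated as an anthocyanidin 3-O-glucosyltransferase, averaged 0.687 FPKM, and its groups overlapped.

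Counted over the 26 entries, the PBT and Control libraries did not overlap in 8 (5 higher and 3 lower in PBT), 30.8% against 26.3% of all genes tested (12.9% higher and 13.4% lower). The GAT and Control libraries did not overlap in 7 (3 higher and 4 lower in GAT), 26.9% against 29.5% (16.8% higher and 12.8% lower). The PBT and GAT libraries did not overlap in 8 (3 higher and 5 lower in PBT), 30.8% against 30.0% (12.6% higher and 17.4% lower). These shares, too, are near those of all genes.

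Enzymes around the family were compared by their descriptions. Among 29 other tested glycosyltransferases named for a small-molecule acceptor, 1 was a DEG in PBT/Control (lower), 5 in GAT/Control (2 higher and 3 lower) and 1 in PBT/GAT (lower), beside 4.34%, 8.42% and 6.30% of all genes tested. Leaving out 1 library gave 1 to 2 (2 without GAT replicate 1 or Control replicate 2), 3 to 6 (3 without GAT replicate 1, GAT replicate 2 or Control replicate 1) and 1 to 2 (2 without PBT replicate 1). Their median log2 fold changes were -0.35, -0.38 and -0.03 in the 3 comparisons. LOC_Os06g18670, an anthocyanidin 3-O-glucosyltransferase, which stabilises anthocyanins, averaged 3.46 ± 0.525 FPKM in PBT, 2.24 ± 0.990 FPKM in GAT and 24.2 ± 3.43 FPKM in Control (SD, n = 3 each). It fell in PBT/Control (-2.50, limma adjusted p 0.000997) and GAT/Control (-2.999, adjusted p 0.000169), and both calls held in all 22 alternatives. LOC_Os04g37820, a cytokinin O-glucosyltransferase, had 92.5 ± 6.57 FPKM in PBT, 219 ± 4.00 FPKM in GAT and 92.5 ± 2.51 FPKM in Control (SD, n = 3 each), far above any of the 26 entries, and it was a DEG in GAT/Control (1.23, adjusted p 8.45e-05) and PBT/GAT (-1.23, adjusted p 0.000124) in all 22 alternatives. LOC_Os04g46990, a cis-zeatin O-glucosyltransferase, had 1.61, 0.943 and 3.36 FPKM in PBT, 0.0174, 0.373 and 0.0156 FPKM in GAT and 2.25, 7.45 and 3.79 FPKM in Control, and fell in GAT/Control (-2.18, adjusted p 0.0116, called in 20 of 21 alternatives). LOC_Os01g43270, described as a hydroquinone glucosyltransferase, had 3.21, 2.01 and 1.94 FPKM in PBT, 0.3005, 1.24 and 1.34 FPKM in GAT and 5.37, 4.62 and 2.51 FPKM in Control. It fell in GAT/Control (-1.40, adjusted p 0.0299, called in 13 of 21 alternatives), a call lost without GAT replicate 1 or 2 or Control replicate 1 or 2 (adjusted p 0.0548 to 0.0973).

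The supply and conversion of UDP-glucose and related sugars was read from 12 tested entries. Of these, 2 were DEGs in PBT/Control, 1 in GAT/Control and 1 in PBT/GAT, all of them higher. Over all genes tested, 4.34%, 8.42% and 6.30% were DEGs in the same order, and 2.87%, 4.71% and 3.48% were higher. Leaving out 1 library gave 1 to 3, 0 to 2 and 0 to 1 DEGs, and every library but GAT replicate 3 and Control replicate 3 changed the count in GAT/Control (2 without GAT replicate 1 or Control replicate 1, otherwise 0). The count in PBT/Control was 1 without GAT replicate 2, any PBT replicate or Control replicate 2 or 3, and that in PBT/GAT was 0 without GAT replicate 2 or 3 or any PBT replicate. LOC_Os03g55070, a UDP-glucose 6-dehydrogenase, which turns UDP-glucose into UDP-glucuronate, averaged 110 ± 3.49 FPKM in PBT and 37.7 ± 0.465 FPKM in Control (SD, n = 3 each). It rose in PBT/Control by 1.52 (limma adjusted p 0.000109, called in all 22 alternatives). Its GAT libraries had 60.7, 62.6 and 64.9 FPKM, above all Control and below all PBT libraries, and it was not a DEG in GAT/Control or PBT/GAT. A second UDP-glucose 6-dehydrogenase, LOC_Os12g25700, had 14.1, 12.2 and 14.3 FPKM in PBT, 10.0, 13.8 and 15.2 FPKM in GAT and 7.85, 3.79 and 6.39 FPKM in Control. It was a DEG in PBT/Control (1.09, adjusted p 0.0418) and GAT/Control (1.03, adjusted p 0.0351), but kept each call only without GAT replicate 1 or Control replicate 1 among the 9 fits that left out 1 library (adjusted p up to 0.122 and 0.106 in the others). LOC_Os04g52370, a UTP-glucose-1-phosphate uridylyltransferase, which makes UDP-glucose, had 4.44, 4.40 and 3.80 FPKM in PBT, 1.96, 0 and 0.4396 FPKM in GAT and 2.91, 1.15 and 2.28 FPKM in Control. It was a DEG in PBT/GAT (1.68, adjusted p 0.0374), and among the 9 fits that left out 1 library it kept the call only without GAT replicate 1 or Control replicate 2 (adjusted p 0.0530 to 0.108 in the others). Both dehydrogenases are also among the 4 tested "UDP-gluco" entries that the KEGG condition left out. Without the fold limit, 2 of these 4 had a limma adjusted p under 0.05 in GAT/Control, where 1 was a DEG. In PBT/GAT, 1 of the 4 did, and 0 were DEGs.

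Removal of the sugar was read from 22 tested entries described as beta-glucosidases, which include enzymes that cut wall glucans rather than glucosides. Of these, 1 was a DEG in PBT/Control (lower), 3 in GAT/Control (all lower) and 2 in PBT/GAT (both higher). Over all genes tested, 4.34%, 8.42% and 6.30% were DEGs in the same order. In the directions named, the shares were 1.47% lower, 3.72% lower and 3.48% higher. The 2 in PBT/GAT, which were also lower in GAT/Control, are described as glucan endo-1,3-beta-glucosidases. Median log2 fold changes were 0.02, -0.07 and 0.29. With 1 library left out, the counts were 1, 3 to 4 and 2 to 3. LOC_Os07g07340, a glucan endo-1,3-beta-glucosidase, had 3.69, 2.61 and 7.73 FPKM in PBT, 0.169, 0.683 and 0.756 FPKM in GAT and 7.01, 7.32 and 6.75 FPKM in Control, and fell in GAT/Control (-2.41, limma adjusted p 0.00212), being higher in PBT/GAT (1.81, adjusted p 0.0120). LOC_Os02g53200, of the same description, averaged 30.4 ± 2.54 FPKM in PBT, 8.14 ± 4.38 FPKM in GAT and 28.9 ± 1.23 FPKM in Control (SD, n = 3 each) and was lower in GAT/Control (-1.86, adjusted p 0.0118) and higher in PBT/GAT (1.93, adjusted p 0.0124). Each of these names is shared with another entry of the table. LOC_Os03g53860, described as a periplasmic beta-glucosidase, averaged 36.5 ± 2.70 FPKM in PBT, 27.8 ± 3.21 FPKM in GAT and 96.4 ± 2.88 FPKM in Control (SD, n = 3 each) and fell in PBT/Control (-1.38, adjusted p 0.000558) and GAT/Control (-1.76, adjusted p 6.53e-05). Of 2 other families that act on foreign and internal toxic compounds, 29 glutathione S-transferases had 1, 4 and 2 DEGs and 94 cytochrome P450 entries had 13, 16 and 10 DEGs in PBT/Control, GAT/Control and PBT/GAT, where 4.34%, 8.42% and 6.30% of all genes tested were DEGs. Leaving out 1 library gave 1 to 2, 2 to 4 and 2 glutathione S-transferases, with 2 in PBT/Control without Control replicate 1 and 2 in GAT/Control without GAT replicate 1 or Control replicate 2. It gave 8 to 13, 11 to 15 and 7 to 10 cytochrome P450 entries, with 8 in PBT/Control without PBT replicate 1. The differences between these lists and the 26 UGT entries were not tested.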

How the data were processed

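RNA from 9 leaf libraries was sequenced, and the authors used Tophat to align the clean reads to the rice pseudomolecules and Cufflinks to assemble transcripts. They deposited FPKM per entry and library and state no further normalization. The submitters' processing notes also list Bowtie 0.12.2 and the builds IRGSP-1.0 and mm8 (a mouse build). Of the 9 files deposited for single libraries, 4 hold the values of another library, so the table of all libraries was used as headed. FPKM carry no counts, so precision rests on 3 libraries per group.

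All entries that averaged 0.5 FPKM or more were tested as log2(FPKM + 1) with limma 3.58.1 in R 4.3.3, as 3 group means in 1 fit with a variance trend. The script was tested on simulated data with normal noise. Changes of 2 on the log2 scale were put only in entries with a mean log2(FPKM + 1) above 3. Recovery of changes in weaker entries, or in those with values of 0, was not tested. The entries and lists were chosen with earlier results of these data known. The genes named are the DEGs, the 10 most abundant entries, the run that holds a DEG, entries next to the limit and, from the lists of glycosyltransferases, UDP-sugar supply and beta-glucosidases, up to 4 DEGs with the largest fold change; the other entries of the 26 are named to account for all of them, with their values known. Alternatives were run for the pseudocount (0.1, 0.5), filter (none, 5 FPKM), scaling, libraries in the fit, treatment of 0, entries sharing a locus name, variance trend and DEG limits. No list linking the locus names to RefSeq symbols was at hand, so the 26 were not matched to such symbols. Sequences were not used here.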

Additional observations from a re-analysis of the deposited data

How the results depend on the processing

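The 23 alternatives reversed no call. Of the 26 entries, 1 was a DEG in PBT/Control, 2 in GAT/Control, 0 in PBT/GAT and 2 in at least 1 comparison. In PBT/Control, 2 were DEGs with only the groups compared in the fit, with a lone 0 treated as missing and with entries of 1 locus name summed, and 3 with an unadjusted p and the fold limit; leaving out 1 library gave 1 to 2. In GAT/Control, 1 was a DEG with median scaling, with only the groups compared and with an adjusted p under 0.01 and no fold limit, and 5 with a lone 0 treated as missing; leaving out 1 library gave 0 to 3, with 0 without GAT replicate 2 and 3 without GAT replicate 3. In PBT/GAT, 1 was a DEG with the filter at 5 FPKM (10 entries tested), with median scaling and with a lone 0 treated as missing, and 2 with an unadjusted p; leaving out 1 library gave 0 to 1, with 1 without GAT replicate 2. In at least 1 comparison, 6 were DEGs with a lone 0 treated as missing and 5 with an unadjusted p; leaving out 1 library gave 2 to 3. The median log2 fold change of the 26 entries ranged from -0.08 to 0.33 in PBT/Control, -0.05 to 0.38 in GAT/Control and -0.47 to 0.39 in PBT/GAT, where -0.47 came from the 10 entries kept by the stricter filter. Over all genes, 799 of 1446 DEGs in PBT/GAT were higher, and 932 of 1423 with median scaling; in GAT/Control, 1080 of 1933 were higher, and 907 of 1858 with median scaling. The replicate numbers are not stated to mark a shared pot or day, and 0 of 9 pairs of libraries with the same number correlated above 0.1 (r of -0.037 to 0.0124 between deviations from the group means); with the replicate number as a block, 1, 2 and 0 entries were DEGs in PBT/Control, GAT/Control and PBT/GAT.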
